A study of Mus musculus with 22 samples.

Results

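The terminal complement components are the 7 proteins C5 (gene Hc), C6, C7, C8 alpha, C8 beta, C8 gamma and C9, of which 6 were measured in mouse liver here, among 18194 genes. The members were fixed by name, and every probe set annotated to them was taken. Hc, C6, C8a, C8b, C8g and C9 each had 1 probe set, and C7, to which no annotated probe set points, was not analysed here. The family was chosen by the C6 signal at 5 weeks, which had been seen to be high in Trim24-deficient livers, so C6 at that age is described without a test. Each of 22 oligonucleotide arrays carried liver RNA from 1 mouse, amplified in 2 rounds. At 14 weeks of age there were 5 Trim24-/- and 5 wild-type (WT) animals. At 5 weeks there were 4 Trim24-/- Rara+/-, 4 Trim24-/- and 4 WT animals. Trim24 is a transcriptional co-regulator disrupted in the germ line, so that it is missing from all cells. Rara encodes a retinoic acid receptor, of which the Trim24-/- Rara+/- animals keep 1 allele, and the series has no Rara+/- group with intact Trim24. All animals came from intercrosses of double heterozygotes on a hybrid background of 60% C57BL/6 and 40% 129/Sv. Numbers given to animals are those of the sample titles.

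The terminal pathway is the last step of complement. C5 is cleaved, its larger fragment binds C6 and then C7, the complex inserts into a membrane, C8 joins it, and many copies of C9 close a pore, the membrane attack complex. C6, C7, C8 alpha, C8 beta and C9 share the membrane attack complex/perforin fold. C8 gamma is a lipocalin joined to C8 alpha, and C5 belongs to the family of C3 and C4. Hepatocytes are the main source of most of these plasma proteins, and the C6 gene is among those expressed more in male than in female mouse liver.

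C6, C7 and C9 lie near each other on mouse chromosome 15, with 1 protein-coding gene between C6 and C7 and 6 between C7 and C9 in the RefSeq gene order. C8a and C8b are on chromosome 4, and C8g and Hc on chromosome 2. RefSeq promoter windows of GRCm38.p6, 300 bases long with 250 before and 50 after the annotated start, were found for all 7 genes, in 8 windows since C8g has 2. Below are those of C6, whose signal stood apart at 5 weeks, and of C8b and C9, whose signals did not. They lie at chr15:4726960-4727259 on the plus strand, chr4:104766067-104766366 on the plus strand and chr15:6445096-6445395 on the plus strand, each written 5′ to 3′ with capitals marking AGGTCA on either strand, the half-site bound by retinoid receptors.
C6: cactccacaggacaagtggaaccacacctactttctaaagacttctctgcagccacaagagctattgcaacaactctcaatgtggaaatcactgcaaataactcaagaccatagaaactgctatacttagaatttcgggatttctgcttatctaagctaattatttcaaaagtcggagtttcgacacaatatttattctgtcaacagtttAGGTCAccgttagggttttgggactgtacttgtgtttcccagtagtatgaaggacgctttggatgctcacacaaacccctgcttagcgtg
C8b: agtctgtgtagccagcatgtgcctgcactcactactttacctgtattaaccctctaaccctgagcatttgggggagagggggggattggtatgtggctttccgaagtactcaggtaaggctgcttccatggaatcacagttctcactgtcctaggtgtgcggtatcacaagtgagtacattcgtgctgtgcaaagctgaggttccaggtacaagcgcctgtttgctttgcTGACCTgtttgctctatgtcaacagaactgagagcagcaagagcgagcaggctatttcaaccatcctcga
C9: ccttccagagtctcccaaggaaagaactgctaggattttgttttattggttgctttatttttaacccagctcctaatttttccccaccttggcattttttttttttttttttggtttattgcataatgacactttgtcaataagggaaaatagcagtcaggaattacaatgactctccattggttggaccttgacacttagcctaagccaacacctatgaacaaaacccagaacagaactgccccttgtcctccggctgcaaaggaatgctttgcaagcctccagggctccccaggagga
The half-site was found once in the C6 window, at base -40 relative to the start, once in that of C7, and once, on the minus strand, in that of C8b. At least 1 match was present in 16.3% of 32851 mouse promoter windows of this length. A direct repeat of that half-site with 5 bases of any kind between the copies was in none of the 8 windows and in 0.00913% of all windows. The STAT site TTCNNNGAA was found in the windows of C7 and C8a and in 8.3% of all, and an interferon-response core, GAAA and GAAA with any 2 bases between them, in none of the 8 and in 3.44% of all. These matches are letters in a window and describe no binding.

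Several facts of the whole series bear on the members. The signals are linear and share a trimmed mean of 100.001 on each array, and median signals of 19.7 to 25.9 at 14 weeks lay above those of 12.6 to 16.1 at 5 weeks. The summed signal of 11 hepatocyte markers lay between 82886 and 136266 on all arrays. Xist, the RNA that silences an X chromosome in females, read 13.4 to 44.5 at 14 weeks and 948 to 2169 at 5 weeks, so age and sex pattern cannot be told apart, while genotypes were compared within 1 pattern. Trim24 itself averaged 450.4 ± 34.1 in Trim24-/- Rara+/-, 363 ± 84.7 in Trim24-/- and 317 ± 111 in WT livers at 5 weeks (SD, n = 4 each), and 235 ± 59.3 in Trim24-/- and 168 ± 24.2 in WT livers at 14 weeks (n = 5 each). The sources used here do not say which part of the gene its probes cover, so it does not check the labels. The number of arrays limits the precision. In whole liver, fewer cells of a type and less RNA per cell cannot be told apart.

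C6, which binds the C5 fragment and starts assembly of the complex, was high in every liver lacking Trim24 at 5 weeks. Its signal was 777, 814, 651 and 712 in Trim24-/- Rara+/- animals 54, 66, 73 and 82, and 819, 847, 719 and 694 in Trim24-/- animals 1, 6, 8 and 37, against 75.0, 69.2, 71.8 and 201 in WT animals 2, 44, 45 and 90. The 2 mutant groups overlapped each other, and neither overlapped WT, whose highest liver, that of animal 90, was still below the lowest mutant liver. Group means were 739 ± 71.9 in Trim24-/- Rara+/-, 770 ± 74.4 in Trim24-/- and 104 ± 64.4 in WT livers (SD, n = 4 each), so that the mean was 7.39 times that of WT in Trim24-/- livers. On the log2(signal + 16) scale, which understates changes of dim genes, C6 differed by 2.77 between Trim24-/- Rara+/- and WT and by 2.83 between Trim24-/- and WT (n = 4 each). Without WT animal 90 the same differences were 3.10 and 3.15. Both comparisons share the WT arrays, and groups without overlap were seen for 4.62% of all genes in the comparison with 1 Rara allele. Between Trim24-/- Rara+/- and Trim24-/- livers the difference was -0.06, with a 95% interval of -0.59 to 0.47.

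Markers of other liver cells were summed beside C6. For 12 stellate cell and matrix markers the sum was 4088 to 4554 in Trim24-/- Rara+/- and 3444 to 7709 in Trim24-/- livers, against 3344 to 4050.1 in WT livers. For 10 endothelial markers it was 3226 to 3767 in Trim24-/- Rara+/- and 1969 to 2986 in Trim24-/- livers, against 2345 to 3221 in WT livers. For 12 macrophage and Kupffer cell markers it was 5246 to 8459 in Trim24-/- Rara+/- and 5207 to 9759.5 in Trim24-/- livers, against 3745 to 7495 in WT livers. The stellate and endothelial sums of Trim24-/- Rara+/- livers lay narrowly above those of WT livers without overlap, and the other ranges overlapped WT. Single genes without overlap made up 4.62% of all genes in that comparison. Among the endothelial markers Ehd3 differed most in linear signal, averaging 862 in Trim24-/- Rara+/- and 462 in WT livers, where Stab2 averaged 471 and 467. All 10 endothelial estimates were positive in that comparison, none was called in limma, and 1 had an unadjusted p under 0.05. Of the 12 macrophage markers, 1 was called between Trim24-/- and WT. This was Mpeg1, with means of 991 in Trim24-/- and 293 in WT livers (limma, adjusted p = 0.0275). An unadjusted p under 0.05 was found for 6 of the 12, against 10.8% of all genes, and 10 of 12 estimates were positive. Cd163 went the other way, at -0.74 (limma, adjusted p = 0.428). No marker stood at 0, and the part of these cells in the C6 signal was not tested.

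**Figure D1:**
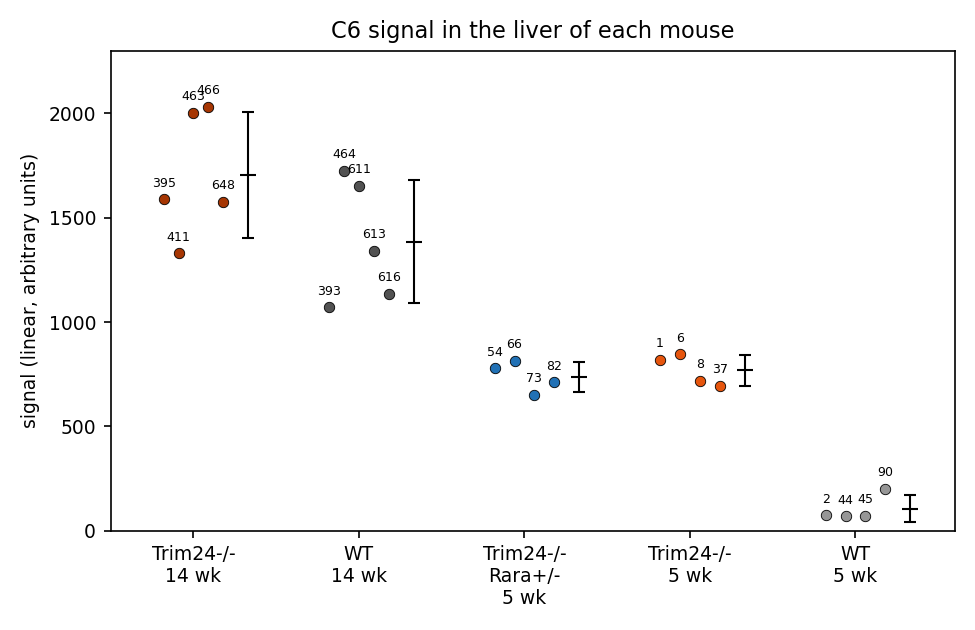
Signal of C6 (linear, arbitrary units) in the liver of each mouse, with animal numbers, for Trim24-/- and WT at 14 weeks and Trim24-/- Rara+/-, Trim24-/- and WT at 5 weeks. Points are single livers and bars the group mean ± SD. WT livers at 5 weeks lie at 69.2 to 201, below all other livers, whose lowest value is 651.

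The other measured components did not follow C6 at 5 weeks. None of the 5 passed a Benjamini-Hochberg adjusted p of 0.05 over all genes between Trim24-/- and WT in limma, 1 of them had an unadjusted p under 0.05, and 0.599% of the 18194 genes passed. Their median log2 change was 0.20, against -0.01 over all genes.

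C8a and C8b encode the 2 pore-forming subunits of C8, and C9 encodes the subunit that closes the pore. C8a read 2008, 1842, 2074 and 1866 in Trim24-/- Rara+/- and 1934, 3037, 2216 and 1936 in Trim24-/- livers, against 2194, 1069, 2502 and 3175 in WT livers, each in the order of animals above. The WT livers spanned both mutant groups. C8a averaged 1947 ± 111 in Trim24-/- Rara+/-, 2281 ± 521 in Trim24-/- and 2235 ± 878 in WT livers (SD, n = 4 each). The log2 difference between Trim24-/- and WT was 0.11, with a 95% interval of -0.47 to 0.68 (limma, adjusted p = 0.928). C8b read 1112, 1104, 764 and 1028 in Trim24-/- Rara+/- and 993, 1137, 1167 and 893 in Trim24-/- livers, against 1283, 359.8, 1225 and 1156 in WT livers. Again the groups overlapped, and the lowest liver was WT animal 44. The C8b difference between Trim24-/- and WT was 0.20, between -0.50 and 0.91 (limma, adjusted p = 0.879). C9 read 1454, 1348, 1503 and 1594 in Trim24-/- Rara+/- and 1927, 2636, 1641 and 1444 in Trim24-/- livers, against 1773, 898, 1713 and 2425 in WT livers. The C9 difference between Trim24-/- and WT was 0.21, between -0.34 and 0.77 (limma, adjusted p = 0.824). These 3 estimates turned negative without WT animal 44, at -0.21 for C8a, -0.22 for C8b and -0.06 for C9, and that of C8a was -0.04 without Trim24-/- animal 6.

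C8g, the lipocalin subunit of C8, was steadier between animals. It read 4335, 4058, 3489.6 and 3497 in Trim24-/- Rara+/- and 3492, 3449, 3715 and 3505 in Trim24-/- livers, against 4020.1, 3993, 4133 and 3699 in WT livers. Trim24-/- livers lay at the lower end, with 1 of the 4 reaching the lowest WT liver, and the log2 difference from WT was -0.16, between -0.37 and 0.05 (limma, adjusted p = 0.587). Hc, whose product C5 is cut to start the terminal steps, read 3081, 2927, 3225 and 2778 in Trim24-/- Rara+/- and 3939.7, 3825, 3375 and 3019.6 in Trim24-/- livers, against 2921, 2496, 2752 and 3124 in WT livers. Hc in Trim24-/- livers lay above WT in 3 of 4 animals. Its difference of 0.32 ± 0.11 (SE), between 0.08 and 0.56, had an unadjusted p of 0.0133 and did not pass over all genes (limma, adjusted p = 0.290). The highest upper bound among the 5 intervals was 0.91, for C8b. C6, the gene that chose the family, was the single measured component whose Trim24-/- and WT livers did not overlap, and 5.52% of all genes had no overlap.

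**Figure D2:**
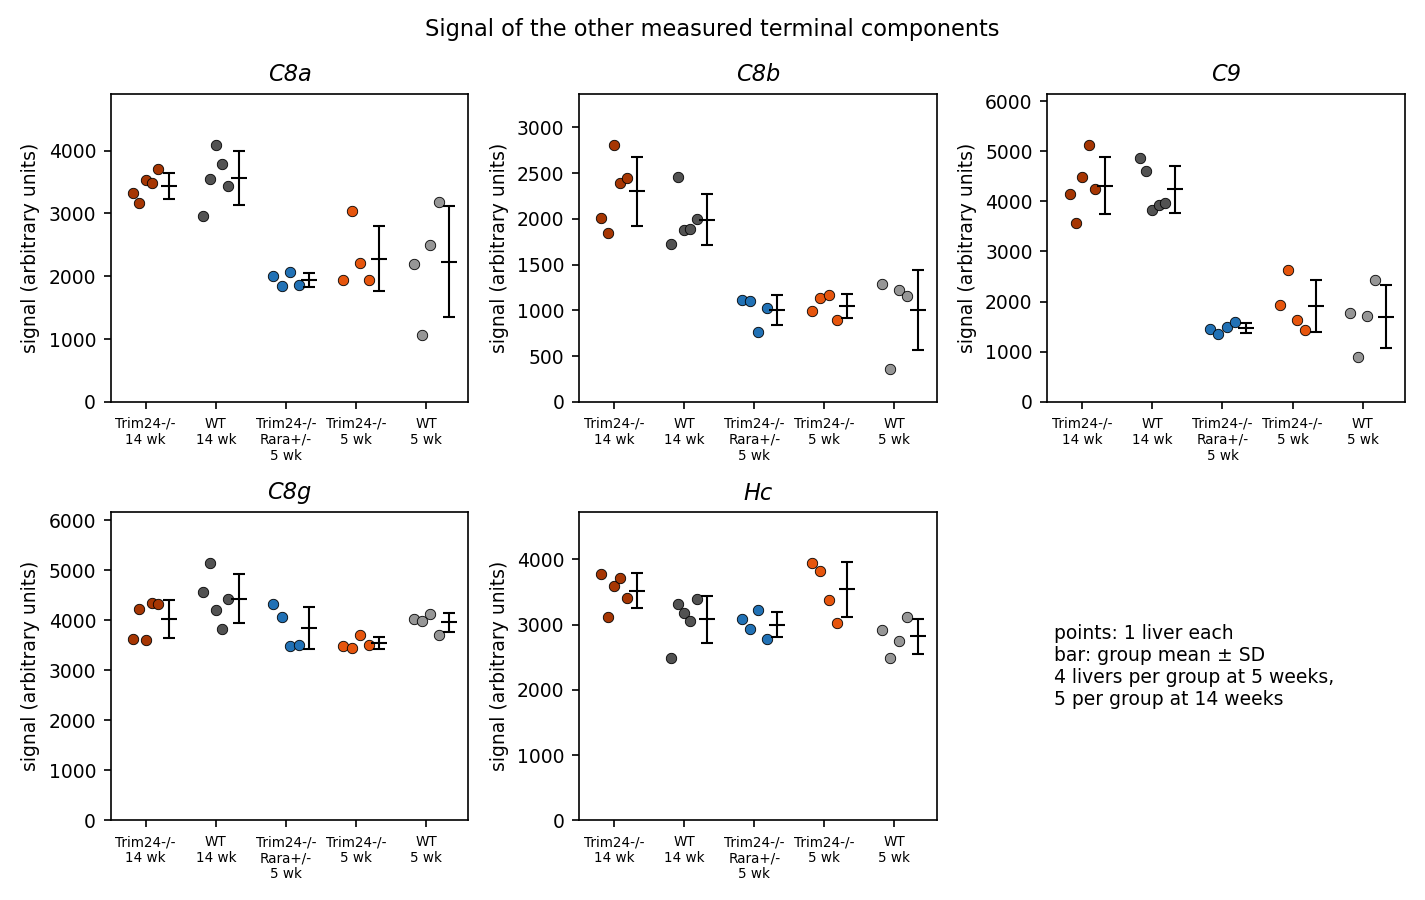
Signal (linear, arbitrary units) of C8a, C8b, C9, C8g and Hc in each liver, grouped as Trim24-/- and WT at 14 weeks and Trim24-/- Rara+/-, Trim24-/- and WT at 5 weeks, with group mean ± SD. Genotype groups of 1 age overlap in all 5 panels, and the 14-week livers lie above most 5-week livers for C8a, C8b and C9.

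With 1 Rara allele removed the other 5 components had estimates near 0. None passed between Trim24-/- Rara+/- and WT in limma, where 0.055% of genes did, and none had an unadjusted p under 0.05. The log2 differences from WT were -0.10 for C8a, 0.13 for C8b, -0.05 for C8g, -0.12 for C9 and 0.09 for Hc. The signs rested on single WT animals: without animal 90 the C8a and C9 values were 0.11 and 0.07, and without animal 44 the C8b value was -0.30. Set directly against Trim24-/- livers, where 0.143% of all genes passed, none of the 5 did, none had an unadjusted p under 0.05, and no component had groups without overlap, where 8.46% of genes did. The largest of these differences were -0.34 for C9, between -0.89 and 0.22 (limma, adjusted p = 0.682), and -0.23 for Hc, between -0.47 and 0.01 (adjusted p = 0.465). Hc averaged 3003 ± 193 in Trim24-/- Rara+/- and 3539.97 ± 424 in Trim24-/- livers (SD, n = 4 each).

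**Figure D3:**
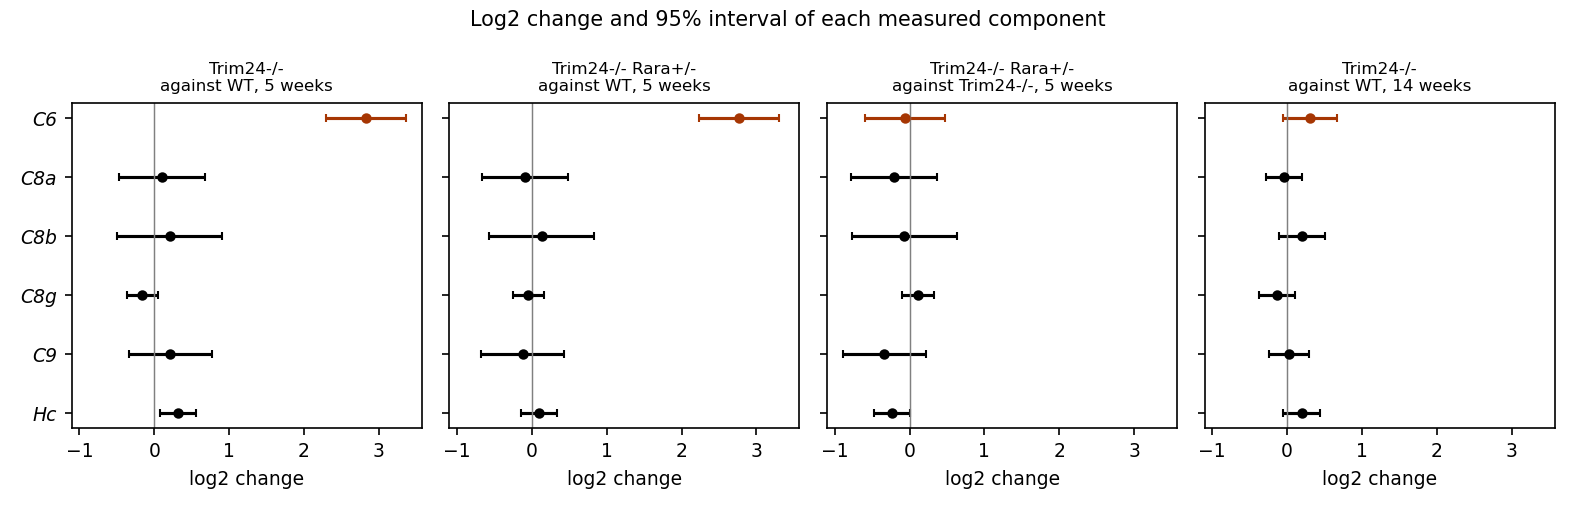
Log2 difference (points) and 95% interval (bars) of the 6 measured components in 4 comparisons. C6 stands at 2.83 and 2.77 in the first and second panels, where the other components lie between -0.16 and 0.32, and at 0.30 between the 14-week groups.

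In the 14-week livers, which had the other sex pattern, the genotypes did not stand apart for C6. Its signal was 1576, 2031, 2004, 1329 and 1587 in Trim24-/- livers, against 1136, 1653, 1341, 1725 and 1072 in WT livers. The groups overlapped, as did those of the other 5 components, while 1.78% of genes had groups without overlap, and all 10 livers exceeded every liver at 5 weeks for C6. These animals had no part in choosing C6, and here it was tested. The means were 1706 ± 303 in Trim24-/- and 1385 ± 295 in WT livers (SD, n = 5 each), a log2 difference of 0.30 ± 0.17 (SE) that did not pass (limma, adjusted p = 0.696, and 0.539 to 0.893 under the alternatives). As a fold it was 1.24, with a 95% interval of 0.96 to 1.59, against 7.11 at 5 weeks. The genotype difference of C6 at 14 weeks minus that at 5 weeks was -2.52. Since it uses the 5-week values it carries no test, and age and sex pattern cannot be told apart in it.

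None of the 6 components passed at 14 weeks in limma, none had an unadjusted p under 0.05, and 0.242% of all genes passed. The median log2 change of the 6 was 0.11, against 0.0012 over all genes. Hc read 3411, 3713, 3594, 3113 and 3775 in Trim24-/- livers, against 3389.8, 3179, 3050.1, 3323 and 2487 in WT livers. Although 4 of 5 Trim24-/- livers exceeded all WT livers, the difference was 0.19, between -0.05 and 0.44 (limma, adjusted p = 0.715). C8b averaged 2299 ± 381 in Trim24-/- and 1992 ± 279 in WT livers (SD, n = 5 each), and its groups overlapped (log2 difference 0.20, adjusted p = 0.771 in limma). C8a at -0.04, C8g at -0.14 and C9 at 0.02 were smaller. In 1 fit of all 22 arrays, the difference between ages in the genotype effect passed for none of the 5 tested components (limma, adjusted p = 0.950 to 0.999, no unadjusted p under 0.05, 0.033% of genes passing). Its 95% intervals were wide for C8b, from -0.75 to 0.74, C8a, from -0.76 to 0.45, and C9, from -0.79 to 0.40. For C8g and Hc they ran from -0.27 to 0.32 and from -0.45 to 0.19.

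The 14-week WT livers were then set against the 5-week WT livers. Here C9, C8b and C8a were higher at 14 weeks, whereas C8g and Hc did not pass. The comparison mixes age, the sex pattern above and the set of arrays, which cannot be told apart, and it called 28.3% of all genes in limma, with 19.7% of all genes higher at 14 weeks. Of 11 tested male-biased liver genes, a list that holds C8a and C8b, 9 were called higher and none lower. Of 12 female-biased genes, 10 were called lower and none higher. The list medians were 1.84, with C6 counted, and -3.17. C9 read 3959, 3829.97, 3935, 4599.9 and 4857 at 14 weeks, against 1773, 898, 1713 and 2425 at 5 weeks, without overlap, as for 19.1% of all genes. Its log2 difference was 1.38 ± 0.20 (SE, limma, adjusted p = 6.00e-05). C8b averaged 1992 ± 279 (SD, n = 5) at 14 weeks and 1006 ± 434 (n = 4) at 5 weeks, again without overlap (1.12 ± 0.25, adjusted p = 0.00270 in limma). C8a averaged 3565 ± 424 at 14 weeks and 2235 ± 878 at 5 weeks, with overlap (0.76 ± 0.21, adjusted p = 0.00830 in limma). Without WT animal 44 at 5 weeks these differences were 1.11, 0.69 and 0.45, and all 3 still passed (adjusted p = 1.37e-04, 0.00296 and 0.0303). The C8a call was lost when each array was centred on its median, at 0.52 (adjusted p = 0.0610), and when the WT arrays alone were fitted (adjusted p = 0.0603). C8g, at 0.16 (limma, adjusted p = 0.257), passed under quantile normalisation, at 0.275 (adjusted p = 0.0218), and turned to -0.09 with centred arrays. Hc stood at 0.12 (adjusted p = 0.419) and at -0.12 with centred arrays. Over all genes the median difference was 0.13.

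C6 itself had the widest gap between ages in WT, averaging 1385 at 14 weeks and 104 at 5 weeks, a log2 difference of 3.64 that is given without a test. In Trim24-/- livers its means were 1706 at 14 weeks and 770 at 5 weeks. The C9 means of Trim24-/- livers, 4312 ± 564 at 14 weeks and 1912 ± 522 at 5 weeks, lay close to those of WT at each age.

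Among WT livers at 5 weeks, single animals set much of the spread. In animal 44, the log2 levels of C8b, C8a and C9 differed by -1.72, -1.27 and -1.10 from the mean of the other 3 WT livers, while C8g differed by 0.02. In animal 90, C6 lay above the other 3 by 1.30, C8a by 0.81 and C9 by 0.79. C8g and Hc varied least, with largest deviations of -0.13 and -0.23. The same animal 44 had the lowest summed signal of 9 other male-biased liver genes among WT livers, 3723 against 10376 to 16779, and the highest of 12 female-biased genes, 21533 against 12005 to 14114. Its hepatocyte sum of 110315 was the lowest of the 4, whose highest was 136266. The part of these in the low C8 and C9 signals was not tested.

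**Figure D4:**
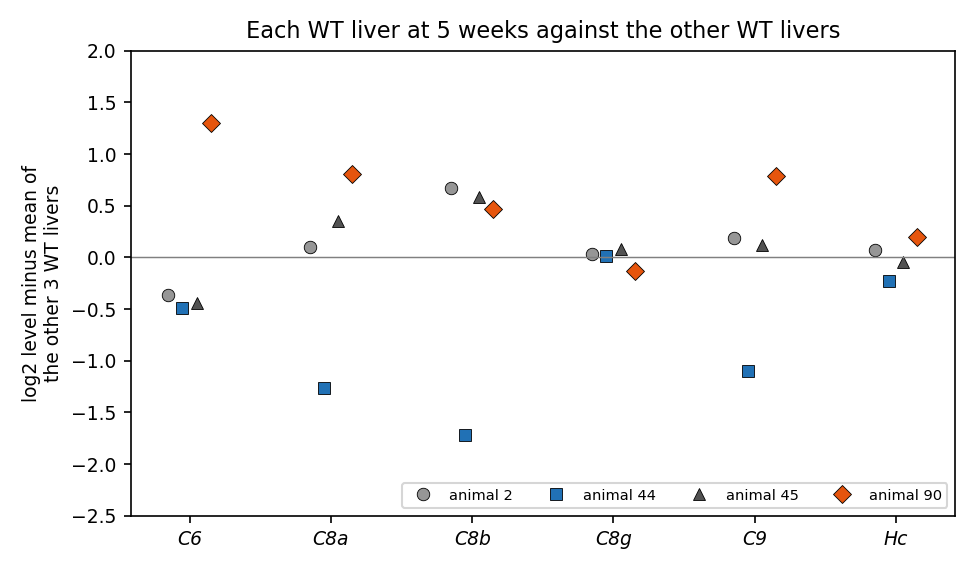
Log2(signal + 16) of each WT liver at 5 weeks minus the mean of the other 3 WT livers, for the 6 measured components. Animal 44 is low for C8a, C8b and C9 (-1.27, -1.72 and -1.10) and animal 90 is high for C6 (1.30).

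Earlier and regulatory parts of the complement system were not called either. The lists hold 14 measured genes of the classical and lectin pathways, 2 of the alternative pathway, 13 regulators and 7 receptors. None of these 36 genes passed in limma between Trim24-/- and WT at 5 or 14 weeks, where 0.599% and 0.242% of all genes did. At such shares a list of this size is likely to hold no call. Of the 36, 9 and 10 had an unadjusted p under 0.05, a larger share than the 10.8% and 8.23% of all genes. At 5 weeks the medians were 0.21, 0.37, 0.02 and 0.10 in that order, against -0.01 over all genes. C2, the protease of the C3 convertase, averaged 751 ± 207 in Trim24-/- and 465 ± 110.4 in WT livers (SD, n = 4 each; log2 difference 0.66, limma, adjusted p = 0.203). Serping1, which encodes the inhibitor of the first proteases, averaged 7987 ± 966 in Trim24-/- and 6145 ± 536 in WT livers (0.37, adjusted p = 0.172). Other genes went lower, among them the regulator Cd55, at -0.48 (limma, adjusted p = 0.415), and the lectin pathway gene Fcnb, at -0.48 (adjusted p = 0.453). Positive estimates were found for 11 of 14 classical and lectin pathway genes and 7 of 13 regulators. At 14 weeks the medians were 0.27, 0.25, 0.03 and 0.27, against 0.0012 over all genes. The highest of these estimates, 0.61 for the macrophage complement receptor Vsig4 (limma, adjusted p = 0.170) and 0.61 for C1qa, a C1q chain made by macrophages (adjusted p = 0.478), belong to genes of Kupffer cells. Summed over 12 macrophage and Kupffer cell markers, the signal was 3953 to 7185 in Trim24-/- and 3333 to 4268 in WT livers at 14 weeks, all 12 markers having a positive estimate at 14 weeks and 10 of 12 at 5 weeks. The part of these cells in the complement values was not tested. None of the 36 genes passed between Trim24-/- Rara+/- and WT or between Trim24-/- Rara+/- and Trim24-/- livers, where 0.055% and 0.143% of all genes did. In these comparisons 3 and 3 of the 36 had an unadjusted p under 0.05, as did 7.44% and 11.5% of all genes.

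**Figure D5:**
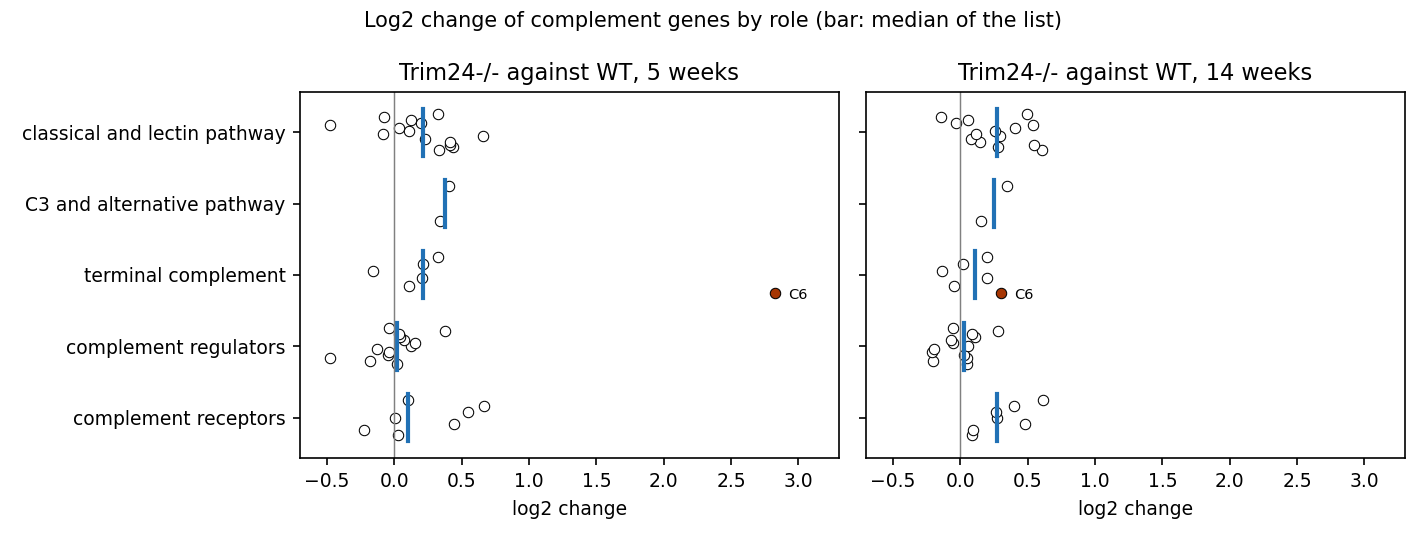
Log2 difference of each measured complement gene between Trim24-/- and WT livers at 5 weeks (left) and 14 weeks (right), by role, with the list median as a bar. C6 lies at 2.83 at 5 weeks, where all other complement genes lie between -0.48 and 0.66, and at 0.30 at 14 weeks.

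The pattern of C6 over the 22 livers was most like that of Cyp7b1, an oxysterol hydroxylase of bile acid synthesis that is higher in male liver. Likeness was the root mean square difference of log2 values after centring each gene over its 22 arrays, among 8333 genes with a mean log2 level of at least 6. It was 0.51 for Cyp7b1, 0.82 for Bmyc, 0.88 for the fatty acid hydroxylase Cyp2u1, 0.91 for the natriuretic peptide receptor Npr2 and 0.94 for Nat8f5, where the median gene had 1.43. Cyp7b1 averaged 4591 ± 665 in Trim24-/- and 3569 ± 1583 in WT livers at 14 weeks (SD, n = 5 each). At 5 weeks it averaged 2364 ± 265 in Trim24-/- Rara+/-, 2401 ± 657 in Trim24-/- and 456 ± 33.3 in WT livers (n = 4 each). Among the members C9, at 1.04, ranked 14th, C8b, at 1.07, 32nd, C8a 203rd, Hc 1553rd and C8g, at 1.39, 3259th. The measure takes in the gap between ages, and neither C9 nor C8b passed between Trim24-/- and WT at 5 weeks. The 22 points share 2 ages and 1 scaling, so the measure is a description.

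Of 11 male-biased liver genes tested beside C6, 3 rose in Trim24-/- livers at 5 weeks in limma, Cyp7b1, Cyp2u1 and Cyp2d9, and none fell, while 0.599% of all genes passed. The count was 2 without WT animal 45 or Trim24-/- animals 1 or 8, with a pseudocount of 1, with the compared groups fitted alone and with similar arrays of a mutant group averaged. Between Trim24-/- Rara+/- and WT, 2 of the 11 passed, Cyp7b1 and Cyp2u1, whereas Cyp2d9 did not (limma, adjusted p = 0.0669), and that count ran from 1 to 3 under the alternatives. Cyp2u1 averaged 97.3 ± 13.1 in Trim24-/- Rara+/-, 216 ± 75.1 in Trim24-/- and 23.5 ± 1.38 in WT livers (SD, n = 4 each). Between Trim24-/- and WT it differed by 2.48 (adjusted p = 3.20e-04 in limma), Cyp7b1 by 2.31 (1.23e-04) and Cyp2d9 by 2.01 (0.01998). Both C8a and C8b are in that list and did not pass. The summed signal of the 9 listed genes that are no terminal component was 16101 to 23694 in Trim24-/- Rara+/- and 17398 to 26681 in Trim24-/- livers, against 3723 to 16779 in WT livers. Bright genes weigh most in this sum, and Cyp2d9 alone averaged 7453 and 7674 in the mutant groups, in that order, and 2127 in WT livers. Between Trim24-/- and WT, Elovl3 and Ugt2b38 had estimates of -0.08 and -0.12. With C6 counted, 10 of the 12 measured genes of the list had a positive estimate between Trim24-/- and WT, and 11 of 12 between Trim24-/- Rara+/- and WT. Since C6 chose the family by these 5-week values, and C8a and C8b are members too, the 2 counts are a description only. The median estimates over all genes were -0.01 and -0.02. Of 12 female-biased genes, Sult2a2 alone fell in Trim24-/- livers at 5 weeks, a call lost without WT animal 45 or Trim24-/- animal 8, with a pseudocount of 1, with the compared groups fitted alone and with similar arrays of a mutant group averaged. There were 2 calls without WT animal 90, with or without Trim24-/- animal 6. Of the 12 female-biased genes, 5 had a positive estimate between Trim24-/- and WT, and 6 between Trim24-/- Rara+/- and WT. Their median estimates were -0.12 and 0.03. The highest were those of Sult3a1, at 3.35 and 3.20, which did not pass (limma, adjusted p = 0.269 and 0.522).

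The genes flanking C6 on chromosome 15 were not called. The 3 measured genes on each side were BC037032, Oxct1 and Plcxd3 on one and Mroh2b, Card6 and Rpl37 on the other. None of them passed between Trim24-/- and WT at 5 weeks in limma, where 0.599% of all genes did. Of these neighbours, 1 had an unadjusted p under 0.05, as did 10.8% of all genes. That neighbour, BC037032, was dim, at 2.90 ± 1.91 in Trim24-/- and 14.4 ± 11.2 in WT livers (SD, n = 4 each; log2 difference -0.62, adjusted p = 0.353). Also dim were Plcxd3, with means of 4.82 in Trim24-/- and 6.10 in WT livers, and Mroh2b, with 1.69 and 5.25. Card6, a caspase-recruitment protein, averaged 137 ± 23.8 in Trim24-/- and 113 ± 25.9 in WT livers (0.25, adjusted p = 0.587).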

How the data were processed

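Per the labels' protocols, total liver RNA was column-purified, amplified in 2 rounds, biotin-labelled and hybridised. For 45101 probe sets on each of 22 arrays, the deposited intensity is linear. Their trimmed mean, without 2% of values at each end, was 100.001 on every array, so they were scaled before deposit, with software the sources used here do not name. A platform annotation gave 1 symbol to 34958 probe sets, and each of 18194 genes was read from the probe set with the highest mean. The tests were those of limma 3.58.1 (lmFit, eBayes; R 4.3.3) on log2(signal + 16), with Benjamini-Hochberg adjustment over all genes and a threshold of 0.05, in a fit of 12 arrays at 5 weeks, of 10 at 14 weeks and of all 22 for comparisons between ages. The code was tested on simulated data. Members and gene lists were chosen with earlier results of these data known. Genes named were drawn from the members, Trim24, Rara, sex-chromosome genes and called genes of the lists. The 3 measured neighbours on each side of C6 and the 5 genes most like C6 were also named. Some called genes of the lists are not named, and values of Rara and of Y-chromosome genes are not given. Other genes, among them C2, Serping1, Cd55, Fcnb, C1qa, Vsig4, Cd163, Ehd3, Stab2, Elovl3, Ugt2b38 and Sult3a1, were named after their values were seen. Labels do not say whether animals shared a litter. No coordinates beside the promoter windows are given, since no build is named for the array annotation.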

Additional observations from a re-analysis of the deposited data

Results flagged for a closer look

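Among 30 combinations of a measured component and a group, 2 had a liver whose distance from its nearest neighbour was large against the whole range of the group by Dixon's criterion, and chance flags about 1 in 20 groups. C6 read 200.76 in WT animal 90 at 5 weeks, where the other 3 WT livers lay between 69.2 and 75.0. C8b read 359.8 in WT animal 44 at 5 weeks, where the others lay between 1156 and 1283.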

How the results depend on the processing

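Under 37 alternatives, 22 of them leaving out 1 array each, no tested component passed in a comparison of genotypes, and between WT ages 2 to 4 of 5 passed, against 3. Of 885 estimates of tested components, 843 kept their direction and their side of the threshold, 2 lost a call, 1 gained one and 39 turned sign, all 39 from estimates that had not passed. Without WT animals 44 and 90, a choice made after the data were seen, the Trim24-/- difference from WT at 5 weeks was -0.0638 for C8a and -0.26 for C8b, the Trim24-/- Rara+/- difference from WT was -0.33 for C8b, and the difference between ages in the genotype effect was 0.0192 for C8a and 0.46 for C8b. That C8b value was 0.0369 with quantile normalisation, 0.0109 with a pseudocount of 64 and 0.0106 with Trim24-/- animals 1 and 8 averaged. The Trim24-/- Rara+/- difference from WT for C8a was 0.0202 with array weights, and without WT animal 90 and Trim24-/- animal 6 it was 0.11 for C8a and 0.0735 for C9. At 14 weeks C8a stood at 0.0446 with quantile normalisation and C9 at -0.0025 with centred arrays, which put C8g and Hc at -0.0863 and -0.12 between WT ages. With 1 array left out, the Trim24-/- difference from WT at 5 weeks ran from -0.21 to 0.31 for C8a, -0.22 to 0.37 for C8b and -0.0621 to 0.41 for C9, and the Trim24-/- Rara+/- difference from WT from -0.41 to 0.11, -0.30 to 0.30 and -0.40 to 0.0735 in the same order. That between Trim24-/- Rara+/- and Trim24-/- ran from -0.14 to 0.0524 for C8b. At 14 weeks the range was -0.11 to 0.0069 for C8a and -0.0422 to 0.0878 for C9, and for the difference between ages it was -0.35 to 0.16 for C8a, -0.17 to 0.42 for C8b, -0.028 to 0.0778 for C8g and -0.39 to 0.0844 for C9. The cause was not tested. The C6 difference of Trim24-/- from WT at 5 weeks ran from 2.37, with a pseudocount of 64, to 3.15. No paired analysis was possible because the groups share no replicate numbers.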
